A study of Mus musculus with 12 samples.

Results

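The 9 genes described here store, carry, oxidise or clear vitamin A and its derivatives in the liver: Retsat, Lrat, Rbp4, Aldh1a1, Aldh1a2, Cyp26a1, Cyp26b1, Rdh16 and Hsd17b13. They were taken by symbol from a table of read counts with 55357 genes. All 9 were found and all 9 were among the 17358 genes that passed the filter on low counts. Liver RNA was sequenced from male C57BL/6J mice that were 7 weeks old at the start, ate chow or CDAHFD for 6 weeks and were sampled at 13 weeks. CDAHFD is a choline-deficient, amino acid-defined diet rich in fat, which causes steatohepatitis in mice. WT mice carried a floxed Ppara gene without Cre (PPARa fl/fl AlbuminCre +/+) and gave 4 libraries on chow (WT chow) and 3 on CDAHFD (WT CDAHFD). KO mice (PPARa fl/fl AlbuminCre Tg/+) gave 2 libraries on chow (KO chow) and 3 on CDAHFD (KO CDAHFD), although the methods give equal group sizes. A histology table of the study lists the KO groups the other way round, with more mice on chow than on CDAHFD. This was not resolved, and the KO groups are those of the labels throughout. All groups thus carried the floxed alleles, and the Albumin promoter drives Cre in hepatocytes, so that other liver cells of the KO keep Ppara. The study asked how loss of PPARα in hepatocytes, and the diet, change DNA methylation and gene expression in the liver.

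Retinol reaches the tissues bound to RBP4, which hepatocytes secrete, and most of the body's reserve lies as retinyl esters in the hepatic stellate cells. Esterification by LRAT stores retinol, retinol dehydrogenases turn it into retinaldehyde, aldehyde dehydrogenases of the ALDH1A family turn this into retinoic acid, and CYP26 enzymes clear retinoic acid. Retinoic acid acts through RAR receptors paired with RXR, which is also the partner of PPARα on DNA.

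The libraries held 29906785 to 43551003 counts, with a median of 36989922. Levels are given as CPM, the counts of a gene for each 1000000 counts of its library, on library sizes scaled by edgeR's TMM method, and changes as log2 fold changes from edgeR's quasi-likelihood test. A gene was called where its p, adjusted by the Benjamini-Hochberg method over all 17358 genes tested, was under 0.05. The labels do not state that the libraries come from separate mice, which was assumed, so the p-values measure the spread between these libraries. Ppara ran from 96.2 to 238 CPM in WT chow, from 59.5 to 75.5 CPM in WT CDAHFD and from 14.4 to 51.9 CPM in the 5 KO libraries. Its log2 fold change relative to WT chow was -2.68 (SE 0.50, adjusted p = 0.00111) in KO chow and -1.29 (SE 0.40, adjusted p = 0.0163) in WT CDAHFD. In KO CDAHFD relative to WT CDAHFD it was -0.94 (SE 0.42, adjusted p = 0.547) and not called, although these groups did not overlap. Within WT chow, Ppara was at 238 and 226 CPM in replicates 3 and 4 and at 120 and 96.2 CPM in replicates 1 and 2. Replicates 3 and 4, and the library of each KO group with the most Ppara, had over 10 CPM of Dbp, a gene with a strong daily rhythm. No WT CDAHFD library did, and the part of the daily rhythm in the Ppara values was not tested. The 10 hepatocyte markers summed to 120695 to 129929 CPM in WT chow, 100263 and 110714 CPM in KO chow, 66832 to 77338 CPM in WT CDAHFD and 60816 to 78648 CPM in KO CDAHFD. Of them 7 were called lower in KO chow and 9 in WT CDAHFD, none higher, and none was at 0 in any library. Of 8 markers of activated stellate cells and fibroblasts, 6 were called higher in KO chow and 6 in WT CDAHFD, none lower. Among all genes tested, 22.0% and 26.1% were called higher in these comparisons. The marker sums were 46.1 to 157 CPM in WT chow, 817 and 984 CPM in KO chow, 1059 to 1148 CPM in WT CDAHFD and 1206 to 1816 CPM in KO CDAHFD. The paper's histology gave chow-fed KO mice isolated steatosis and both CDAHFD groups fibrosis. How this relates to the marker sums of KO chow was not tested. Of 8 macrophage markers, 6 were called higher in KO chow and none lower, and in WT CDAHFD 5 were called higher and 1 lower. Their log2 fold changes in WT CDAHFD ran from -4.57 to 11.4. Their sums were 244 to 427 CPM in WT chow, 793 and 1002 CPM in KO chow and 1086 to 1533 CPM in the CDAHFD groups. Of 8 liver genes known to be higher in males, 7 were called lower in KO chow and 7 in WT CDAHFD, and their sums were 10185 to 14521 CPM in WT chow, 2880 and 5669 CPM in KO chow and 2621 to 5131 CPM in the CDAHFD groups. Of 7 tested genes known to be higher in females, 3 were called higher in KO chow and none lower, and in WT CDAHFD 3 were called higher and 1 lower. The sums of the 9 listed were 7.34 to 18.3 CPM in WT chow, 115 and 371 CPM in KO chow, 9.79 to 13.7 CPM in WT CDAHFD and 35.9 to 163 CPM in KO CDAHFD. No batch is named for the libraries, and a batch and a group cannot be told apart here.

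Relative to WT chow, 5 of the 9 genes were called in KO chow, 4 lower (Retsat, Rdh16, Aldh1a1 and Rbp4) and 1 higher (Hsd17b13). Among all genes tested, 39.0% were called in this comparison, 22.0% higher and 17.0% lower. In WT CDAHFD, 4 of the 9 were called against WT chow, Retsat and Rbp4 lower and Aldh1a1 and Aldh1a2 higher, where 51.1% of all genes were called, 26.1% higher and 25.0% lower. Between KO CDAHFD and WT CDAHFD, 2 of the 9 were called, Retsat and Aldh1a1, both lower, where 0.357% of all genes were called. Between KO CDAHFD and KO chow, 2 of the 9 were called, Retsat and Hsd17b13, both lower, where 6.19% of all genes were called. The interaction of genotype and diet, which tests whether the diet change differed between the genotypes, was called for Retsat, Rbp4 and Hsd17b13, where 23.1% of all genes were called. The median log2 fold change of the 9 genes was -0.93 in KO chow and -0.37 in WT CDAHFD, beside medians of 0.0022 and -0.048 over all genes tested.

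**Figure D1:**
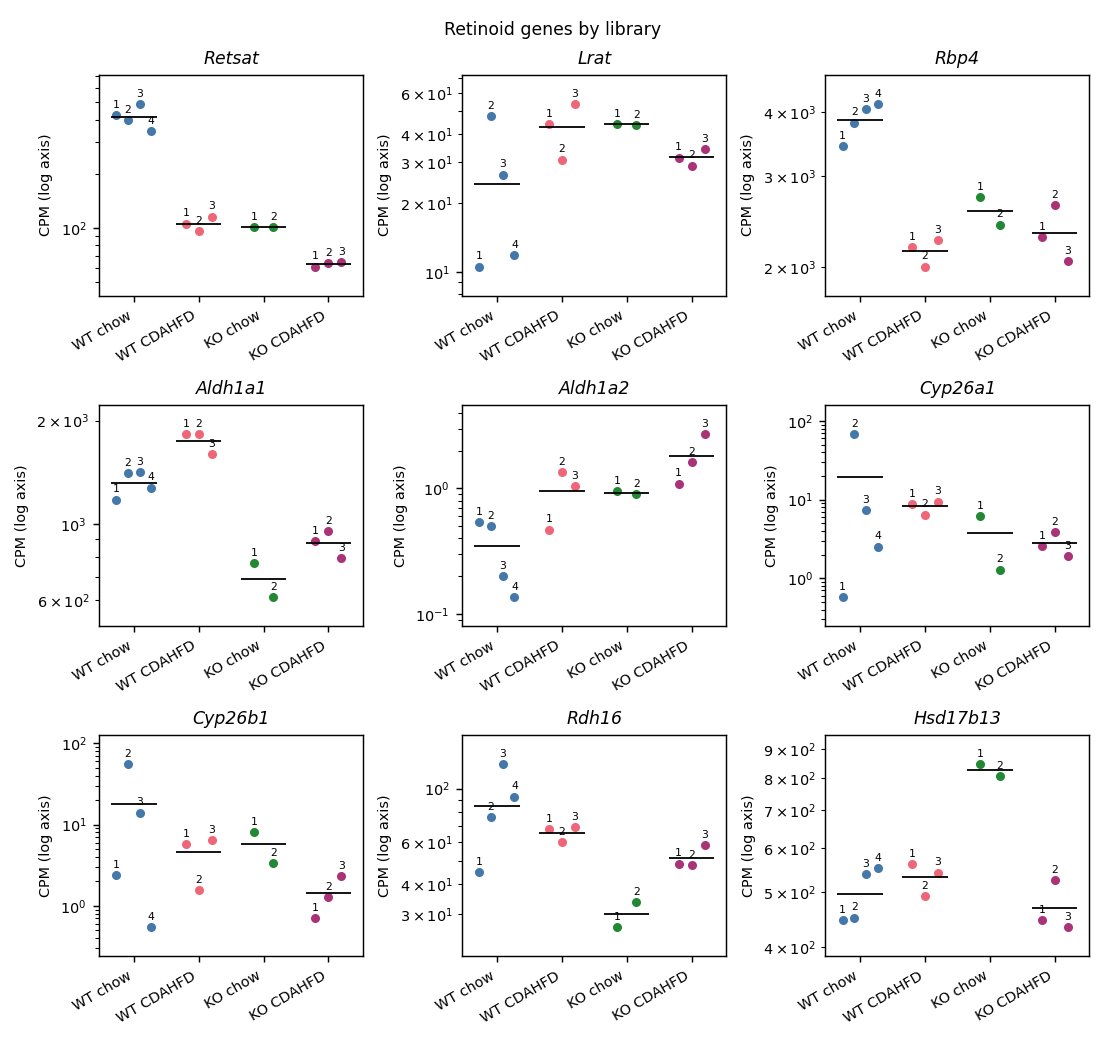
CPM of the 9 retinoid genes on a log axis in each library, with the replicate number above each point and the group mean as a line. Retsat was lower in all 8 libraries outside WT chow, between 61.0 and 116 CPM, than in the 4 WT chow libraries, between 345 and 490 CPM, and Cyp26a1 and Cyp26b1 ranged most widely within WT chow.

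Among the genes of storage and transport, Retsat had the largest decrease. It encodes retinol saturase, which converts retinol into dihydroretinol, and lies on chromosome 6 from 72598475 to 72608425 on the plus strand (GRCm38). Its CPM values were 424, 397, 490 and 345 in the WT chow libraries and 106, 95.9 and 116 in WT CDAHFD. In KO chow they were 101 and 101, and in KO CDAHFD 61.0, 63.8 and 64.8. WT chow lay above every other library, KO chow lay within the range of WT CDAHFD, and the 3 KO CDAHFD libraries lay below all others. The log2 fold change was -2.04 (SE 0.15, adjusted p = 7.42e-07) in KO chow, 4.11-fold lower than WT chow, and -1.97 (SE 0.13, adjusted p = 1.18e-07) in WT CDAHFD, 3.92-fold lower. Among fits that each left out a library, these changes ran from -2.11 to -1.94 and from -2.04 to -1.86.

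With both loss of PPARα and CDAHFD, Retsat was lower again. KO CDAHFD differed from WT CDAHFD by -0.74 on the log2 scale (SE 0.13, adjusted p = 0.0293) and from KO chow by -0.67 (SE 0.14, adjusted p = 0.017). The diet change was thus smaller in KO than in WT mice, with an interaction of 1.29 on the log2 scale (SE 0.19, adjusted p = 3.43e-04). The first of these calls was lost when any 1 of the 6 CDAHFD libraries was left out, with values of -0.81 to -0.67 and adjusted p of 0.059 to 0.15, although the groups did not overlap. The call against KO chow was lost without KO chow replicate 1 (-0.66, adjusted p = 0.106), KO chow replicate 2 (-0.67, adjusted p = 0.0716) or KO CDAHFD replicate 1 (-0.65, adjusted p = 0.0621), and with total counts as the only scaling both calls were lost (-0.69, adjusted p = 0.0783, and -0.47, adjusted p = 0.0827). An antisense gene, Gm45053, shares 650 exon bases with Retsat, and its counts came to 0.394% of those of Retsat.

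The RefSeq promoter of Retsat (GRCm38.p6, chr6:72598352-72598651, plus strand, 250 bases before the start site to 50 after it) is shown because this gene had the largest called change of the set. It was searched for direct repeats of a hexamer, which could be AGGTCA, its form AGTTCA, or either of them with its first letter replaced, which gives GGGTCA and in the same way GGTTCA. With 1 base between the hexamers, the arrangement that PPAR and RXR are known to bind, no repeat was found on either strand. Such a repeat stood in 0.222% of the 32851 RefSeq promoters of this length and in none of the 11 promoters of the 9 genes. These letters do not cover every sequence the receptors bind. The paper names Retsat a target gene of PPARα and measured DNA methylation at its promoter by pyrosequencing. It reports a strong increase in KO mice and a modest one in WT mice on CDAHFD. DNA methylation was not examined here.
Retsat promoter: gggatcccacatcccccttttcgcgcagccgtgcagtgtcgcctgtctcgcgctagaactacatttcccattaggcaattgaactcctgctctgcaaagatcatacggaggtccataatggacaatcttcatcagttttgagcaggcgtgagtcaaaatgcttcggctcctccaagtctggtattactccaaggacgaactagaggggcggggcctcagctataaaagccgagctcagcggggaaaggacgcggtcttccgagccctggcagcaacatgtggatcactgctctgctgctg

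Lrat, on chromosome 3 from 82892579 to 82903973, encodes the acyltransferase that makes retinyl esters, mostly in stellate cells. Its levels in the WT chow libraries were 10.6, 47.8, 26.5 and 11.9 CPM. They were 44, 30.8 and 54.0 CPM in WT CDAHFD, 44.2 and 43.7 CPM in KO chow and 31.5, 29.1 and 34.4 CPM in KO CDAHFD. WT chow replicate 2 had more Lrat than either KO chow library, so the groups overlapped. The change was not past the threshold in KO chow (log2 fold change 0.85, 95% interval -0.12 to 1.83, adjusted p = 0.152) nor in WT CDAHFD (0.82, -0.05 to 1.70, adjusted p = 0.107). Without WT chow replicate 2, both were called higher, at 1.44 (adjusted p = 0.00572) and 1.41 (adjusted p = 0.0028). That was the only 1 of the 12 fits with a library left out that called them, and without WT chow replicate 1 they were 0.615 and 0.589. They were called also with total counts as the only scaling (1.26, adjusted p = 0.0371, and 1.38, adjusted p = 0.0119), where the medians of all genes were 0.40 and 0.51. Without the filter on low counts they were called too (0.89, adjusted p = 0.0241, and 0.87, adjusted p = 0.0107). DESeq2 (adjusted p = 0.213 and 0.133), its size factors in edgeR and fits of only the 2 groups compared did not call them.

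Markers of stellate cells are given beside Lrat because its transcript is known mostly from them. Of 11 markers of resting stellate cells, 8 were called higher in KO chow and none lower, and in WT CDAHFD 7 were called higher and 1 lower. Their sums were 414 to 521 CPM in WT chow, 813 to 843 CPM in WT CDAHFD, 862 and 893 CPM in KO chow and 830 to 902 CPM in KO CDAHFD, and none of the 11 was at 0 in any library. Between KO CDAHFD and WT CDAHFD none of the 11 was called, nor was Lrat (-0.44, adjusted p = 0.834). Their part in the values of Lrat was not tested. In bulk liver RNA, fewer cells of a type and less RNA in each of them cannot be told apart.

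Rbp4, on chromosome 19 from 38116629 to 38125281, encodes the carrier of retinol in plasma and was the most abundant of the 9 transcripts per length, at 2879 CPM per kb of exon in WT chow. Next in WT chow came Aldh1a1 (267), Hsd17b13 (231), Retsat (117), Rdh16 (13.7), Cyp26a1 (9.92), Lrat (4.52), Cyp26b1 (3.38) and Aldh1a2 (0.153), as mean CPM per kb. The order of the lower genes rests on WT chow replicate 2, since without it Lrat (3.05) came before Cyp26a1 (1.75) and Cyp26b1 (1.05), each within the spread of its neighbour. Without WT chow replicate 3, Cyp26a1 (12) came before Rdh16 (11.5). In CPM, the WT chow libraries had 3435, 3816, 4062 and 4152 of Rbp4, and WT CDAHFD had 2183, 2002 and 2257. KO chow had 2729 and 2416 CPM, and KO CDAHFD 2286, 2639 and 2053 CPM. Every WT chow library lay above every other library, and the other 3 groups were close together, with KO CDAHFD overlapping each of the other two. Rbp4 fell by 0.59 on the log2 scale in KO chow (SE 0.14, adjusted p = 0.00596) and by 0.85 in WT CDAHFD (SE 0.13, adjusted p = 1.14e-04). No further change was called with both (0.12 relative to WT CDAHFD, 95% interval -0.17 to 0.40), and the interaction was 0.70 (SE 0.19, adjusted p = 0.0195).

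The decrease of Rbp4 in KO chow depended on the scaling and varied with the KO chow library left out. With total counts as the only scaling, under which the median of all genes shifted to 0.40 in KO chow and to 0.51 in WT CDAHFD on the log2 scale, it was -0.18 (adjusted p = 0.183). It was -0.50 (adjusted p = 0.064) without KO chow replicate 2. Dbp, a gene with a strong daily rhythm, was above 10 CPM in WT chow replicates 3 and 4, KO chow replicate 2 and KO CDAHFD replicate 3, at 44.8 to 130 CPM. Without these 4 libraries, which also left KO chow with a single library, the Rbp4 change in KO chow was -0.41. The interaction was not past the threshold without WT CDAHFD replicate 2 (0.66, adjusted p = 0.0558), with the replicate number as a block (0.66, adjusted p = 0.0759) or with total counts only (0.34, adjusted p = 0.0998). It was 0.62 without KO chow replicate 2 and 0.61 without the 4 libraries with high Dbp. The decrease in WT CDAHFD was called in each of these fits, at -0.29 (adjusted p = 0.0185) with total counts only. The hepatocyte markers were lower in the same comparisons, and their part in the values of Rbp4 was not tested.

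Of the genes that oxidise retinol, Rdh16 fell in KO chow and Hsd17b13 rose. Rdh16 (chromosome 10 from 127801152 to 127846565) encodes a microsomal retinol dehydrogenase of the liver. Its levels were 45.0, 76.3, 126 and 92.8 CPM in WT chow, 68.0, 60.0 and 69.2 CPM in WT CDAHFD, 26.6 and 33.6 CPM in KO chow and 48.8, 48.1 and 58.3 CPM in KO CDAHFD. KO chow was the lowest group and overlapped no other, while WT CDAHFD lay within the wide range of WT chow. The log2 fold change in KO chow was -1.5 (SE 0.30, adjusted p = 0.00192), 2.83-fold lower, and it ran from -1.69 to -1.23 with each library left out in turn. In WT CDAHFD it was -0.37 (95% interval -0.92 to 0.17, adjusted p = 0.236). KO CDAHFD was 0.78 above KO chow (95% interval 0.12 to 1.45, adjusted p = 0.153) and the interaction was 1.15 (adjusted p = 0.0529), neither past the threshold. WT chow replicate 1 held the lowest level of its group. Without it the WT CDAHFD decrease (-0.56, adjusted p = 0.0171), the difference from KO chow (0.80, adjusted p = 0.0312) and the interaction (1.36, adjusted p = 0.00237) were each past the threshold. Other fits turned the WT CDAHFD change upward, to 0.196 with total counts as the only scaling and to 0.114 without the 4 libraries with high Dbp. In WT chow, KO chow and KO CDAHFD the libraries with high Dbp had the most Rdh16, and WT CDAHFD held no such library. The part of the daily rhythm in these values was not tested. Of the 100-base windows of Rdh16 transcripts, 7.75% stood also in transcripts of other genes, among them Rdh1, Rdh9 and Rdh16f1, so reads of these genes may be exchanged.

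Hsd17b13, on chromosome 5 from 103955440 to 103977410, encodes an enzyme of lipid droplets with retinol dehydrogenase activity. The WT chow libraries had 447, 451, 538 and 553 CPM, WT CDAHFD 562, 492 and 543 CPM, and KO CDAHFD 446, 526 and 434 CPM. Both KO chow libraries, at 845 and 804 CPM, lay above the other 10, which overlapped each other. It was called higher in KO chow than in WT chow (log2 fold change 0.73, SE 0.13, adjusted p = 7.15e-04), 1.66-fold, and lower in KO CDAHFD than in KO chow (-0.82, SE 0.14, adjusted p = 0.00614). The diet change in WT mice was 0.098 (95% interval -0.16 to 0.35, adjusted p = 0.511), and the interaction was -0.91 (SE 0.18, adjusted p = 0.00285). These calls held with each library left out in turn. With total counts as the only scaling, Hsd17b13 was 1.14 higher in KO chow and was called higher in WT CDAHFD as well (0.66, adjusted p = 5.12e-05), beside the shift of 0.51 in all genes.

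Aldh1a1 encodes the main retinaldehyde dehydrogenase of the adult liver and lies on chromosome 19 from 20492715 to 20643465. It had 1175, 1408, 1412 and 1274 CPM in WT chow and 1827, 1823 and 1595 CPM in WT CDAHFD. In KO chow it had 766 and 613 CPM and in KO CDAHFD 891, 950 and 793 CPM. The WT groups lay above the KO groups without overlap, and the CDAHFD libraries of each genotype lay above its chow libraries. The genotype difference was -0.93 (SE 0.14, adjusted p = 2.63e-04) on chow and -0.99 (SE 0.13, adjusted p = 0.00447) on CDAHFD, 1.91-fold and 1.99-fold lower, and both were called with each library left out. The diet change was 0.41 in WT mice (SE 0.12, adjusted p = 0.0135) and 0.35 in KO mice (95% interval 0.029 to 0.67, adjusted p = 0.18), the second not past the threshold. The interaction was -0.060 (95% interval -0.47 to 0.35, adjusted p = 0.864). The WT diet change was not past the threshold without WT CDAHFD replicate 1 (0.38, adjusted p = 0.0554) or replicate 2 (0.38, adjusted p = 0.0535). With total counts as the only scaling, the differences were -0.53 between genotypes on chow, 0.97 between diets in WT mice and 0.55 in KO mice, each called. Aldh1a1 shared 1 of its 4934 windows of 100 bases with its neighbour Aldh1a7.

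Genes of pericentral hepatocytes moved with Rdh16 and Aldh1a1 in KO chow. Of 9 such markers, among them Glul and Cyp2e1, 7 were called lower in KO chow than in WT chow and 8 were called higher in KO CDAHFD than in KO chow. In WT CDAHFD relative to WT chow they went both ways, with 2 called higher and 3 lower and a median log2 fold change of -0.044. Their sums were 7451 to 12440 CPM in WT chow, 5875 to 7064 CPM in WT CDAHFD, 2162 and 2888 CPM in KO chow and 7361 to 8238 CPM in KO CDAHFD, with none of the 9 at 0 in any library. Between KO CDAHFD and WT CDAHFD none of the 9 was called, while Aldh1a1 differed there by -0.99. Lower levels in KO chow were not particular to pericentral genes, since 7 of the 10 hepatocyte markers were called lower there too. Of 6 periportal markers 2 were called lower and none higher, with sums of 10220 to 12707 CPM in WT chow and 6516 and 7970 CPM in KO chow. The part of these genes in the result for Rdh16 was not tested.

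Aldh1a2, on chromosome 9 from 71215789 to 71296243, encodes another retinaldehyde dehydrogenase, known from stellate and mesothelial cells. It was the rarest of the 9, with 14, 16, 6 and 3 counts in WT chow (0.544, 0.504, 0.200 and 0.138 CPM). It had 0.471, 1.34 and 1.05 CPM in WT CDAHFD, 0.952 and 0.897 CPM in KO chow, and 1.09, 1.63 and 2.71 CPM in KO CDAHFD. WT chow was the lowest group, and WT CDAHFD replicate 1 fell within it. The increase was called in WT CDAHFD (log2 fold change 1.43, SE 0.49, adjusted p = 0.0279) but not in KO chow (1.38, 95% interval 0.19 to 2.57, adjusted p = 0.0632). In WT CDAHFD the call was lost without WT chow replicate 3 (1.24, adjusted p = 0.0761), its replicate 4 (1.21, adjusted p = 0.0702), WT CDAHFD replicate 2 (1.10, adjusted p = 0.127) or its replicate 3 (1.36, adjusted p = 0.0695), and without the 4 libraries with high Dbp (0.86, adjusted p = 0.171). In KO chow it passed the threshold when WT chow replicate 1 was left out (1.66, adjusted p = 0.0452) and, at 1.38, without WT CDAHFD replicate 1 (adjusted p = 0.0495). It was called there also with total counts only (1.77, adjusted p = 0.0239), without the filter (1.42, adjusted p = 0.0267) and by DESeq2 (1.40, adjusted p = 0.0363). Of 5 mesothelial markers, 1 was called higher in KO chow, and WT CDAHFD had 2. Their summed levels were 2.60 to 6.61 CPM in WT chow, 6.99 to 13.3 CPM in WT CDAHFD, 4.20 and 9.38 CPM in KO chow and 7.47 to 9.63 CPM in KO CDAHFD, and Upk1b was at 0 in WT chow replicate 1. The part of these and of the stellate markers in the values of Aldh1a2 was not tested.

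**Figure D2:**
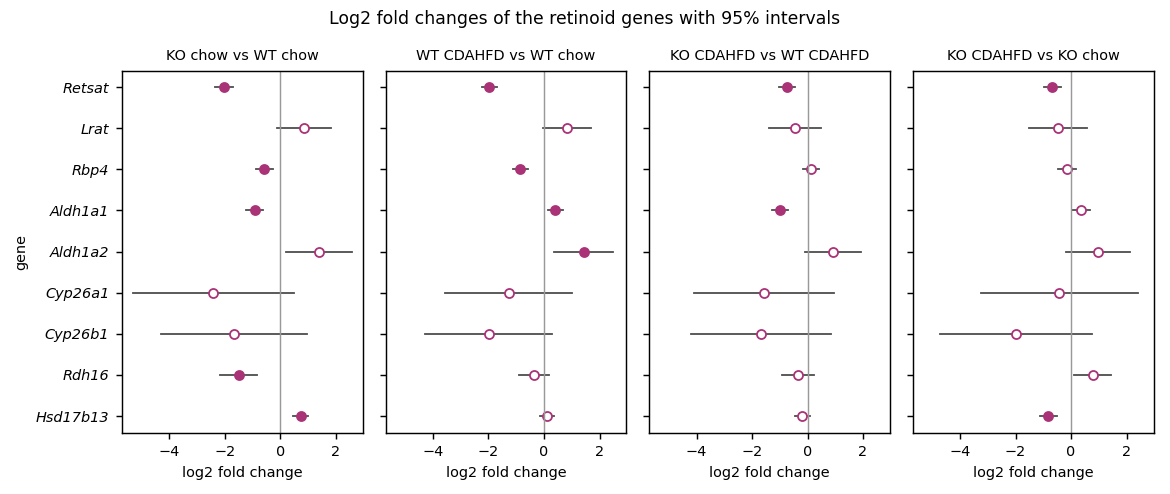
Log2 fold changes of the 9 retinoid genes with 95% intervals in 4 comparisons, filled where the gene was called. Retsat was called lower in each of the 4, and the intervals of Cyp26a1 and Cyp26b1 were the widest, from -5.31 to 0.48 for Cyp26a1 in KO chow.

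The genes of retinoic acid clearance varied more within WT chow than between the groups. Cyp26a1 (chromosome 19 from 37697798 to 37701536) and Cyp26b1 (chromosome 6 from 84571414 to 84593908) encode hydroxylases that degrade retinoic acid, and retinoic acid is known to induce them. Cyp26a1 had 0.582, 68.2, 7.30 and 2.52 CPM in WT chow, 8.73, 6.43 and 9.44 CPM in WT CDAHFD, 6.17 and 1.29 CPM in KO chow and 2.55, 3.85 and 1.93 CPM in KO CDAHFD. Cyp26b1 had 2.37, 55.3, 14.0 and 0.550 CPM in WT chow, 5.76, 1.57 and 6.40 CPM in WT CDAHFD, 8.05 and 3.35 CPM in KO chow and 0.703, 1.28 and 2.31 CPM in KO CDAHFD. WT chow replicate 2 was the highest of the 12 libraries for each gene, while WT chow replicate 1 was the lowest for Cyp26a1 and replicate 4 the lowest for Cyp26b1.

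Neither gene was called in any of the 5 comparisons with the filter and all 12 libraries in the fit. In KO chow the log2 fold change was -2.42 for Cyp26a1 (95% interval -5.31 to 0.48, adjusted p = 0.174) and -1.68 for Cyp26b1 (-4.32 to 0.96, adjusted p = 0.3). In WT CDAHFD it was -1.27 (-3.57 to 1.03, adjusted p = 0.34) and -1.99 (-4.28 to 0.29, adjusted p = 0.133). Without WT chow replicate 2, the change in KO chow was 0.098 for Cyp26a1 (adjusted p = 0.936) and 0.0065 for Cyp26b1 (adjusted p = 0.997), and that of Cyp26a1 in WT CDAHFD was 1.25 (adjusted p = 0.154). The decrease of Cyp26b1 in WT CDAHFD passed the threshold when WT chow replicate 4 was left out (-2.38, adjusted p = 0.043) and without the 4 libraries with high Dbp (-2.67, adjusted p = 0.0405), and without WT chow replicate 2 it was -0.30 (adjusted p = 0.794). Without the filter on low counts, Cyp26a1 was called in KO chow (-2.39, adjusted p = 0.0273) and Cyp26b1 in WT CDAHFD (-1.96, adjusted p = 0.0171). On CDAHFD the 3 KO libraries lay below the 3 WT libraries for Cyp26a1 (log2 fold change -1.57, 95% interval -4.09 to 0.96, adjusted p = 0.765), and a fit of only these 2 groups called it (-1.56, adjusted p = 0.03). For Cyp26b1 the groups overlapped.

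Of the other genes known to respond to retinoic acid, some were high in WT chow replicate 2 and others were not. Relative to the median of the other 3 WT chow libraries, Cyp26a1 was 4.73 higher on the log2 scale in this library and Cyp26b1 4.52 higher, which were rank 2 and rank 4 among the 12905 genes averaging 50 counts or more. Rarb, a retinoic acid receptor whose own gene responds to retinoic acid, was 2.41 higher (rank 13), and Lrat was 2.0 higher (rank 25). Further down came Dhrs3 (0.70 higher, rank 554) and Rarres2 (0.41 higher, rank 1396). Tgm2 (0.066, rank 4972) and Rarres1 (0.019, rank 5777) stood in the middle, and Hic1 (-0.31, rank 10380) and Ncoa7 (-0.53, rank 11836) lay below that median. Retsat (-0.095), Rbp4 (-0.090) and Aldh1a1 (0.14) were near the other WT chow libraries. The joint pattern was not limited to replicate 2. Cyp26a1, Cyp26b1, Rarb and Lrat also ranked high in WT chow replicate 3, at 12 to 144 by the same measure. In WT chow replicates 1 and 4 they ranked near the bottom, at 12647 to 12903. Each library was set against the median of the other 3, so the ranks of these libraries are not independent. Cyp26a1, for example, was 1.51 in replicate 3 and -1.51 in replicate 4, which is the same difference. The genes named here were picked after the values of Cyp26a1 had been seen, and each rank describes 1 library. Rarb shares 1793 exon bases with Top2b on the other strand, which had 30244 counts over the 12 libraries beside 1093 for Rarb, so its value is uncertain in libraries without strand.

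**Figure D3:**
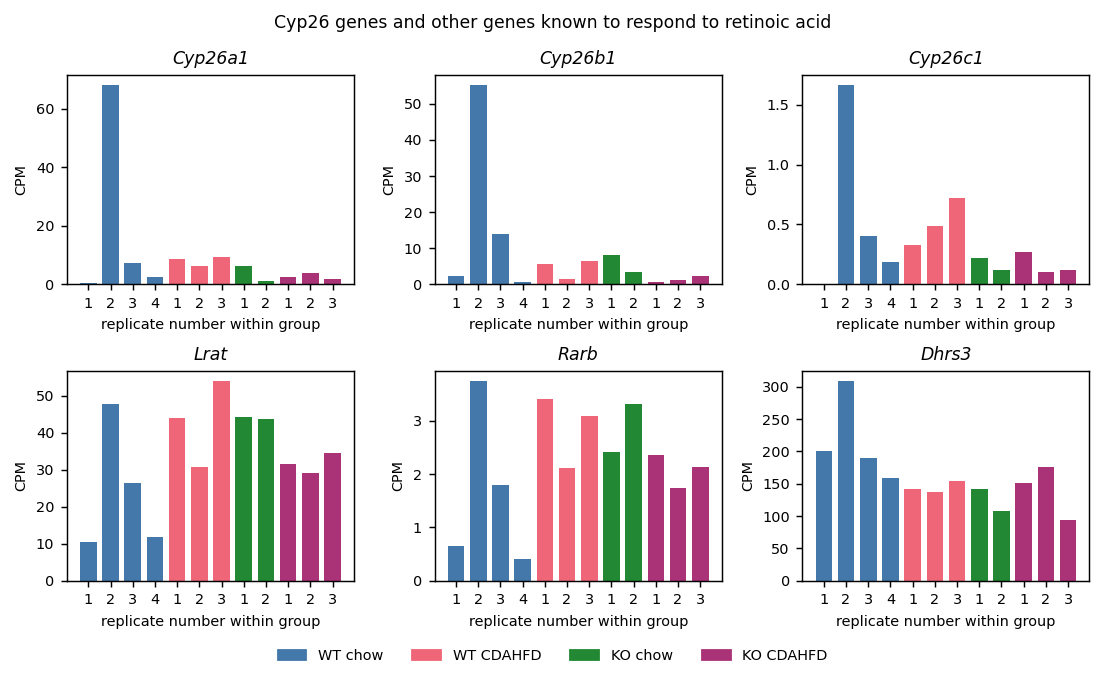
CPM of Cyp26a1, Cyp26b1, Cyp26c1, Lrat, Rarb and Dhrs3 in each of the 12 libraries, as bars on linear axes from 0, coloured by group. WT chow replicate 2 had the highest bar for all except Lrat, where WT CDAHFD replicate 3 was higher at 54.0 CPM against 47.8 CPM.

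The promoters of Cyp26a1, Cyp26b1 and Lrat are shown because these genes were high together in WT chow replicate 2. They were searched on both strands for direct repeats of the same hexamers with 5 bases between them, an arrangement that RAR and RXR are known to bind. Cyp26a1 held 1 such repeat, in capitals, which starts 32 bases before the start site and reads on the minus strand. It was the only one in the 11 promoters of the 9 genes, and 0.0974% of all 32851 promoters held one. Repeats with 2 bases between the hexamers stood in none of the 11 and in 0.268% of all. The windows are chr19:37697558-37697857 on the plus strand for Cyp26a1, chr6:84593761-84594060 on the minus strand for Cyp26b1 and chr3:82903925-82904224 on the minus strand for Lrat (RefSeq, GRCm38.p6). A match is a description of the letters and not a measured binding site, and its absence covers this window only.
Cyp26a1 promoter: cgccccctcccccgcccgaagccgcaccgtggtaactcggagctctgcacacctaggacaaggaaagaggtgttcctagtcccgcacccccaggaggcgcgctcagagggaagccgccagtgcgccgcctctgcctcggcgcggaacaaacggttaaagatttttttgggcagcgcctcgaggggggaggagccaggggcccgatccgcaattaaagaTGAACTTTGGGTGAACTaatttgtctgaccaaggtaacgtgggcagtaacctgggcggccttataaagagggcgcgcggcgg
Cyp26b1 promoter: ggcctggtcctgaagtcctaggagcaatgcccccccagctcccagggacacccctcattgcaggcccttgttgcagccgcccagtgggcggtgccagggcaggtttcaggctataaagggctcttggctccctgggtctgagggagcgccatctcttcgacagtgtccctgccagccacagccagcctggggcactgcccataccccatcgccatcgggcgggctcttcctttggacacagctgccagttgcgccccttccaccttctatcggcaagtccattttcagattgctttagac
Lrat promoter: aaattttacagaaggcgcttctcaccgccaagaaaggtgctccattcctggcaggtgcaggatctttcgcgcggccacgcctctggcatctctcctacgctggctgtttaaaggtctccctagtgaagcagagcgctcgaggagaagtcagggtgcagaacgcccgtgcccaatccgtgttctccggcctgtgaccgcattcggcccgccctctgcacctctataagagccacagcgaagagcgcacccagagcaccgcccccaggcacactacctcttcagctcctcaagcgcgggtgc

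Around the 9 genes, 62 further genes of the retinoid pathway were counted by role, of which 54 passed the filter. In KO chow 31 of the 54 were called, 10 higher and 21 lower, beside 39.0% of all genes, 22.0% higher and 17.0% lower. In WT CDAHFD 32 were called, 11 higher and 21 lower, beside 51.1%, 26.1% higher and 25.0% lower. Between KO CDAHFD and WT CDAHFD 3 of the 54 were called, all lower (Rarres1, Hsd17b11 and Dhrs4), beside 0.357% of all genes. Between KO CDAHFD and KO chow 4 of the 54 were called, 2 in each direction, beside 6.19% of all genes. The median change of the 54 on the log2 scale was -0.34 for KO chow and -0.28 for WT CDAHFD.

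In binding and transport, 4 of 9 genes were tested and all 4 were called in KO chow, 1 higher and 3 lower, against 1 higher and 1 lower in WT CDAHFD. Ttr, the plasma partner of RBP4 and 1 of the 10 hepatocyte markers, fell by 0.67 in KO chow (adjusted p = 0.00827) and by 1.47 in WT CDAHFD (adjusted p = 6.66e-06). Cd36, a scavenger receptor that takes up fatty acids, rose by 2.7 and 4.21. Of the 8 genes of ester hydrolysis and storage, 4 were called lower in KO chow and 5 in WT CDAHFD, none higher. Ces1f and Ces1d, carboxylesterases of hepatocytes, fell by 1.18 and 1.17 in KO chow and by 2.29 and 2.03 in WT CDAHFD. Plin2, a coat protein of lipid droplets, was not called (-0.049 and 0.25). Of the carotenoid cleaving enzymes, Bco2 fell by 1.34 and 0.97, and Bco1, which makes retinaldehyde from beta-carotene, rose by 1.03 and 0.40.

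Of the 20 oxidoreductases tested, 1 was called higher and 9 lower in KO chow, and 2 higher and 11 lower in WT CDAHFD. Adh7, an alcohol dehydrogenase that acts on retinol, fell by 1.78 and 1.46, and Akr1c6 by 0.88 and 0.67. Dhrs9, a short-chain dehydrogenase, rose by 2.0 and 2.81. On CDAHFD, Hsd17b11, the closest relative of Hsd17b13, was 1.14 lower in KO than in WT on the log2 scale and Dhrs4 0.59 lower, both called. Of the 5 genes of retinaldehyde oxidation, 2 were called higher and 2 lower in each of the 2 comparisons with WT chow. Aldh1a3 rose by 1.85 and 1.43, and Aox3, an aldehyde oxidase, fell by 2.35 and 1.77. Among the other genes of retinoic acid clearance, Cyp2c39 was called higher (1.5 and 2.08) at under 3 CPM in every library.

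Of the 6 receptors, 1 was called higher and 1 lower in each comparison with WT chow. Rxra, the main RXR of the liver and the partner of PPARα, fell by 1.0 (SE 0.18, adjusted p = 7.12e-04) in KO chow and by 0.83 (SE 0.15, adjusted p = 5.93e-04) in WT CDAHFD, and Rarg rose by 0.79 and 1.07. Of 6 tested genes known to respond to retinoic acid, 3 were called higher and 1 lower in KO chow and 3 higher in WT CDAHFD. Rarres1 had 42.1 to 48.8 CPM in WT chow, 28.3 to 42.6 CPM in WT CDAHFD, 2.86 and 3.43 CPM in KO chow and 9.85 to 13.7 CPM in KO CDAHFD. The KO groups overlapped neither each other nor a WT group, and the log2 fold change was -3.84 (SE 0.21, adjusted p = 1.05e-07) in KO chow and -1.62 (SE 0.16, adjusted p = 8.69e-04) in KO CDAHFD relative to WT CDAHFD. Ncoa7, a nuclear receptor coactivator, rose by 1.82 and 1.91. The most abundant gene of this group, Rarres2, which encodes chemerin, was not called (-0.48 and -0.077). Ncoa7 shares 78 exon bases with Hint3, and Adh7 shares 108 bases with 0610031O16Rik on the other strand, whose counts were 329% and 80.6% of theirs. The carboxylesterase, Akr1c and Cyp2c genes have close paralogs with which reads may be exchanged, which was not tested.

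**Figure D4:**
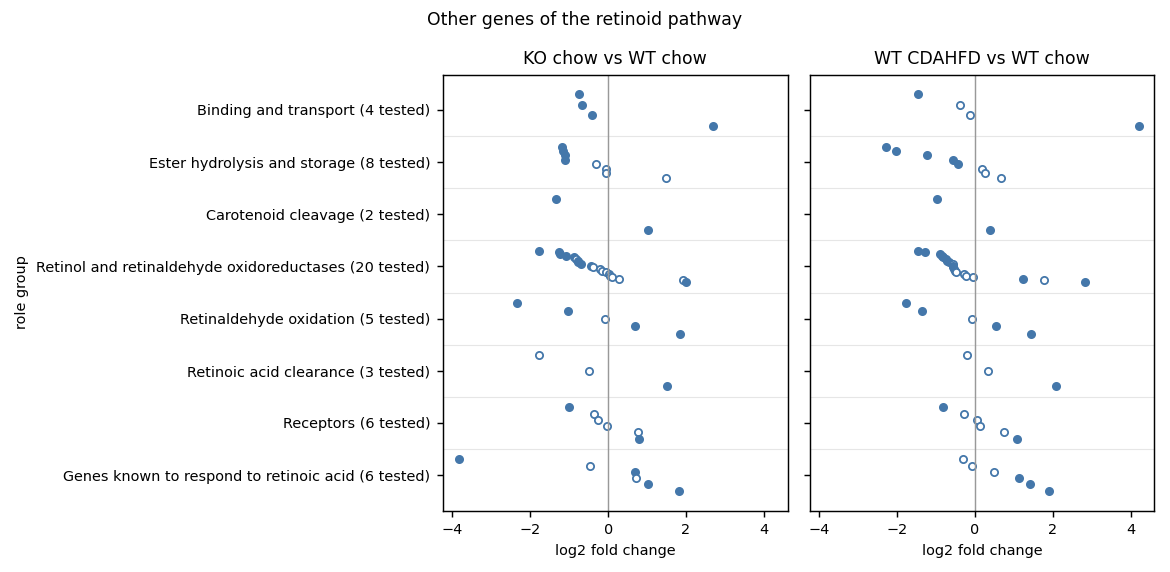
Log2 fold changes of the 54 tested genes of the retinoid pathway outside the 9, by role, against WT chow for KO chow (left) and WT CDAHFD (right), filled where the gene was called. Called genes of ester hydrolysis and storage lie to the left of 0 in both comparisons, and the other groups hold called genes on both sides in at least 1 of them, except retinoic acid clearance, where 1 gene was called higher in each.

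The genes whose levels followed each of the 9 most closely were found by the root mean square difference of log2 CPM over the 12 libraries, after each gene was centred on its mean, among the same 12905 genes. Rbp4 was followed most closely, by Urod (0.040) and Ndufb5 (0.064). Nearest to Hsd17b13 were Cdhr5 (0.13) and Dph5 (0.14), to Rdh16 Abhd15 (0.18) and Gna12 (0.18), to Aldh1a1 Efna5 (0.26) and Rogdi (0.30), and to Retsat Disp2 (0.27) and Ido2 (0.30). Lrat was followed by Rarb (0.28) and Pcdh18 (0.34), and Aldh1a2 by Wnt5a (0.41) and Meox1 (0.42). Cyp26a1 and Cyp26b1 had no close match: Raet1d lay 1.06 from Cyp26a1, and Cyp26a1, at 1.29, was the nearest gene to Cyp26b1. A small difference is easier to reach for a gene that varies little, as Rbp4 and Hsd17b13 did, with spreads of 0.38 and 0.30 beside 1.11 for Retsat and 1.64 for Cyp26a1 on the same scale.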

How the data were processed

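Poly-A selected RNA of mouse liver was sequenced in 12 non-directional libraries. The deposited raw read counts come from reads that the authors checked with FastQC 0.11.5 and mapped by STAR 2.7.3a to GRCm38, and they are given per Ensembl gene without normalization. The authors named DESeq2 for differential expression. The counting program and annotation release are not given in the sources used here. Groups and replicate numbers were taken from the labels. Symbols, positions and exon lengths came from GENCODE M21, which covers 94.08% of the table's identifiers (99.691% of counts). The 9 genes, the pathway and marker lists and the rules were chosen with earlier results of these data known.

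Counts were analysed in R 4.3.3 with edgeR 4.0.16 (filterByExpr by group, TMM, glmQLFit with the legacy dispersion, glmQLFTest) in a 4-group means model over all 12 libraries, since KO chow has only 2. P-values were adjusted over the 17358 genes tested, and standard errors are the log2 fold change over the root of F. CPM per kb used the exon length of the gene. Total counts of 29906785 to 43551003 set the precision, and a count of 0 allows up to 3 counts, for counting error only. Alternatives were DESeq2 1.42.0, its size factors, total counts as the only scaling, no filter, only the 2 groups compared, a replicate block, each library left out, and, chosen after seeing the data, only the 8 libraries with Dbp under 10 CPM. The steps were tested on simulated data. Pathway genes named in the text were, for each role, the gene with the highest mean count and the 2 called genes with the largest change against WT chow among those with a mean of at least 50 counts. Dhrs3, Rarb, Cyp26c1, Tgm2, Hic1, Hsd17b11 and Dhrs4 were named after their values were seen. 1 listed pathway gene is not reported here and enters no list count. Promoters were RefSeq sequences of GRCm38.p6. Windows of 100 bases were compared between GENCODE transcripts with Python 3.11.15.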

Additional observations from a re-analysis of the deposited data

Results flagged for a closer look

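Within the 4 WT chow libraries, the gap between the highest or lowest library and its neighbour, divided by the range of the group, was compared with Dixon's critical value at 95% for the 9 retinoid genes and the 18 pathway genes named by rule. The gap was above it for 2 of the 27 genes, each for the highest library, which was WT chow replicate 2: Cyp26a1 at 68.2 CPM and Bco2 at 39.3 CPM. Chance gives about 1 in 20 groups. Groups of 3 or fewer libraries were not examined in this way.

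The diet change differed between the genotypes, by the interaction term of edgeR's quasi-likelihood test, for 3 of the 9 retinoid genes. On the log2 scale the interaction was 1.29 for Retsat, 0.70 for Rbp4 and -0.91 for Hsd17b13. Of the 54 tested pathway genes it was called for 22, 15 positive and 7 negative, beside 23.1% of all genes tested. A positive value means that the change with CDAHFD was more positive in KO than in WT mice. Most pathway genes named by rule were picked for a large change against WT chow. That change is part of the interaction, so their values are not independent of the choice. Among these named genes, positive values were those of Rarres1 (2.23), Adh7 (1.69), Aox3 (1.66), Ces1f (1.49), Ces1d (1.32), Bco2 (1.26), Akr1c6 (0.96), Ttr (0.93) and Rxra (0.90). Negative values were those of Dhrs9 (-3.24), Cd36 (-3.09), Ncoa7 (-1.95), Aldh1a3 (-1.81) and Bco1 (-0.93). Each of these rests on the 2 KO chow libraries.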

How the results depend on the processing

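With DESeq2's size factors in edgeR, all 45 fold changes (9 genes in 5 comparisons) kept their direction and side of the threshold. With total counts as the only scaling 33 did, and 3 turned: Rdh16 in WT CDAHFD (0.196), Rbp4 between KO CDAHFD and KO chow (0.0551) and the interaction for Cyp26b1 (-0.315), and 1 of the 9 was called between KO CDAHFD and WT CDAHFD. Without the filter, which tested 30104 genes, 8 of the 9 were called in KO chow and 5 for the interaction, 5 pathway genes between KO CDAHFD and WT CDAHFD, and the interaction for Cyp26b1 was -0.0061. DESeq2 called 8 pathway genes between KO CDAHFD and KO chow, with -0.00884 for that interaction, and a fit of only the 2 groups called 5 between KO CDAHFD and WT CDAHFD, and Cyp26a1 with them (-1.56, adjusted p = 0.03). With only the libraries of low Dbp, Rdh16 in WT CDAHFD was 0.114 and the interaction for Cyp26b1 -0.358. The cause was not tested.

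Same-numbered libraries did not deviate together (15 pairs, r from -0.242 to 0.266, 3 over 0.1), so the numbers were not taken to pair them. The replicate block called 2 of the 9 in WT CDAHFD, losing Aldh1a1 (0.388, adjusted p = 0.056) and Aldh1a2 (1.12, adjusted p = 0.0955), lost the interaction for Rbp4 (0.663, adjusted p = 0.0759), gave -0.0833 for the interaction of Cyp26b1, and called 5433 of all genes in KO chow in place of 6763.

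With each library left out in turn, the count of the 9 called ran from 2 to 5 in WT CDAHFD, from 1 to 2 between KO CDAHFD and WT CDAHFD and from 1 to 3 between KO CDAHFD and KO chow, where pathway genes ran from 1 to 5. Cyp26a1 ran from -3.94 to 0.0977 and Cyp26b1 from -2.44 to 0.00652 in KO chow, and Cyp26a1 from -1.67 to 1.25 in WT CDAHFD and from -1.16 to 1.12 between KO CDAHFD and KO chow. The interaction ran from -1.66 to 2.38 for Cyp26a1, from -1.66 to 0.79 for Cyp26b1 and from -0.212 to 0.109 for Aldh1a1. Where KO chow was left with 1 library, its spread was assumed to equal that of the other groups. At 3 to 16 counts, Aldh1a2 in WT chow is limited by depth.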
